A study of Mus musculus with 8 samples.

Results

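Oxidative phosphorylation subunit genes were examined by complex across genotype and culture time in mouse dental papilla cells. The members were the gene symbols that begin with Nduf followed by a, b, c, s or v and a number, the 4 Sdh genes, symbols beginning with Uqcr, the nuclear Cox4 to Cox8 subunits that end in a letter or a number after it, and symbols beginning with Atp5 and a letter. The rule found 80 of the 22609 symbols of the gene count table: 36 of complex I, 4 of complex II, 8 of complex III, 15 of complex IV and 17 of complex V. The rule does not take Cox4i1, Ndufab1, Cyc1 or cytochrome c, which are described with the other pathway genes. It takes Atp5s and Atp5sl, which are not structural subunits of the ATP synthase. Complexes were assigned by symbol alone.

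The respiratory chain passes electrons from NADH (complex I) and succinate (complex II) through ubiquinone, complex III and cytochrome c to oxygen at complex IV, and the ATP synthase (complex V) uses the resulting proton gradient to make ATP. Most subunits are encoded in the nucleus and imported into the mitochondrion, while a few core subunits of complexes I, III, IV and V are encoded by mitochondrial DNA and were not analysed here. Some subunits of complex IV and of the ATP synthase come in paralogous isoforms, of which those of muscle and heart are the best known. Mesenchymal cells that form mineralized tissue are known to use both glycolysis and oxidative phosphorylation.

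Total RNA was sequenced from 8 libraries of immortalized mouse dental papilla cells, the mesenchyme of the tooth germ that gives rise to odontoblasts. The iBmp2 fx/fx cells carry both Bmp2 alleles flanked by loxP sites (labelled Bmp2 floxed/floxed), and the iBmp2 ko/ko cells are the Bmp2 knock-out cells (labelled Bmp2 KO), written fx/fx and ko/ko from here on. Each genotype is 1 cell line, harvested at 6, 24, 48 and 72 h of culture, with 1 library per genotype and time. The tests used the 3 libraries per genotype of 6, 48 and 72 h, and the 24 h libraries are given apart. The different times therefore serve as the replicates, p-values measure only the spread between these libraries, and the line and the genotype cannot be told apart.

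The reads on genes numbered from 25890110 to 32415665, so that 3 counts, taken here as the smallest detectable level, correspond to 0.0925 to 0.116 CPM (a count as a share of the reads on genes, scaled to 1000000). Such floors cover counting error only. Bmp2 itself was at 1 read in the fx/fx library of 24 h and at 0 in the rest, so its counts do not check the labels. The mesenchyme markers together had 13827 to 19049 CPM in the fx/fx and 15197 to 21694 CPM in the ko/ko libraries of the tests, and the epithelium markers at most 1.87 CPM. Of 9 dental mesenchyme markers, Lhx8 and Barx1 were at or under 3 counts in every library, and the odontoblast marker Dspp was too. In the library labelled ko/ko at 24 h, 63 of the 75 members tested were nearer to the fx/fx mean than to the ko/ko mean on the log2 CPM scale. That count cannot place the library, since the members were also low in the fx/fx library of 24 h. Their median there was -0.17 from each gene's own mean over the 8 libraries. The library labelled ko/ko at 24 h stood apart from the other ko/ko libraries in markers that separated the genotypes at the other times. These markers were picked after their values were seen, and were at fx/fx levels in it. Dlx2 had 44.5 CPM (33.0 to 55.4 in the fx/fx and 3.74 to 17.2 in the other ko/ko libraries), Col3a1 936 CPM (895 to 1160 and 1752 to 3737) and Thy1 105 CPM (79.3 to 109.7 and 187 to 261). The label of this library is therefore in doubt, its values below are those of a library labelled ko/ko, and no genotype difference is read from 24 h.

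The reads were aligned to the mm9 genome, in which several members have near-identical copies elsewhere, and 41.3 to 49.6% of the alignments of a library were not unique and stayed uncounted. To show how far this touches the members, every 50-base window of 1 annotated transcript per gene was looked up in the genome. No window had a second exact match for 38 of the 80 members, and over 10% of windows had one for 24 members. The 4 windows below span an exon junction of the spliced transcript, with the downstream exon in capitals, and each is found without the intron at another place in mm9. They are shown because a read of such a window has more than 1 place in the genome.
Cox7c: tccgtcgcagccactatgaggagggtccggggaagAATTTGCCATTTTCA
Atp5l: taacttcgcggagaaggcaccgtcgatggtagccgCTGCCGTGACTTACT
Ndufs5: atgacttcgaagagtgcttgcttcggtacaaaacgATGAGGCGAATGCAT
Atp5g2: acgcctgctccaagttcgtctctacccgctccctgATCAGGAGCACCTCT
The windows come from chr13:86186206-86186240 and chr13:86185460-86185474 for Cox7c, from chr9:44728693-44728727 and chr9:44722880-44722894 for Atp5l, from chr4:123393107-123393141 and chr4:123390155-123390169 for Ndufs5 and from chr15:102498142-102498176 and chr15:102496272-102496286 for Atp5g2, all on the minus strand of mm9. The contiguous copies lie at chr11:75413367-75413416 and chr17:26038847-26038896 for Cox7c, at chr11:97629391-97629440 and chr5:24087614-24087663 for Atp5l and at chr16:42955925-42955974 for Ndufs5. For Atp5g2, 3 such copies were found, including chr17:5816587-5816636 and chr7:24732198-24732247.

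Levels are given as reads per kilobase of the annotated transcript and scaled like CPM (RPKM), the scale on which different genes were compared. The median of the 75 members that passed the filter on low counts was 85.3 RPKM over the 6 libraries, and they ranged from 1.85 to 678 RPKM. The highest was Atp5b, the catalytic beta subunit of the ATP synthase, and Atp5a1, the alpha subunit of the same catalytic head, had 311 RPKM. Median levels were 77.6 RPKM for complex I, 88.2 for complex II, 94.2 for complex III, 169.5 for complex IV and 110.2 for complex V.

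In complex I the highest member was Ndufb9, an accessory subunit of the membrane arm, with 396 RPKM, and the lowest of those tested was Ndufb4 with 5.15 RPKM. Complex II ranged only from 38.4 RPKM for Sdhc, a membrane anchor, to 121 RPKM for Sdhb, the iron-sulfur subunit. In complex III, Uqcrh, the hinge protein at the cytochrome c1 side, had 253 RPKM and Uqcrb, a ubiquinone-binding subunit, 40.2 RPKM. The low values of Ndufb4 and Uqcrb stand beside copied shares of 41.3% and 61.5% of their windows.

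The plot of level against copied share sets all tested members side by side. The 8 tested members with over 40% of windows copied had a median of 19.2 RPKM and at most 55.5 RPKM. The 34 tested members with no copied window had a median of 82.6 RPKM, and some of them were low too, down to 2.45 RPKM. Over the 75 members Spearman's rank correlation of level and copied share was -0.16, which is a description of genes that share libraries. Taking only the windows unique in the genome as the length raised the median of the members from 85.3 to 102 RPKM. It raised Atp5l from 15.9 to 150.3 RPKM and Cox7c from 10.9 to 38.2 RPKM. The RPKM of Ndufb2 and Atp5g1 rest on annotated transcripts of 4371 and 4715 bases, the longest among the members.

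**Figure D1:**
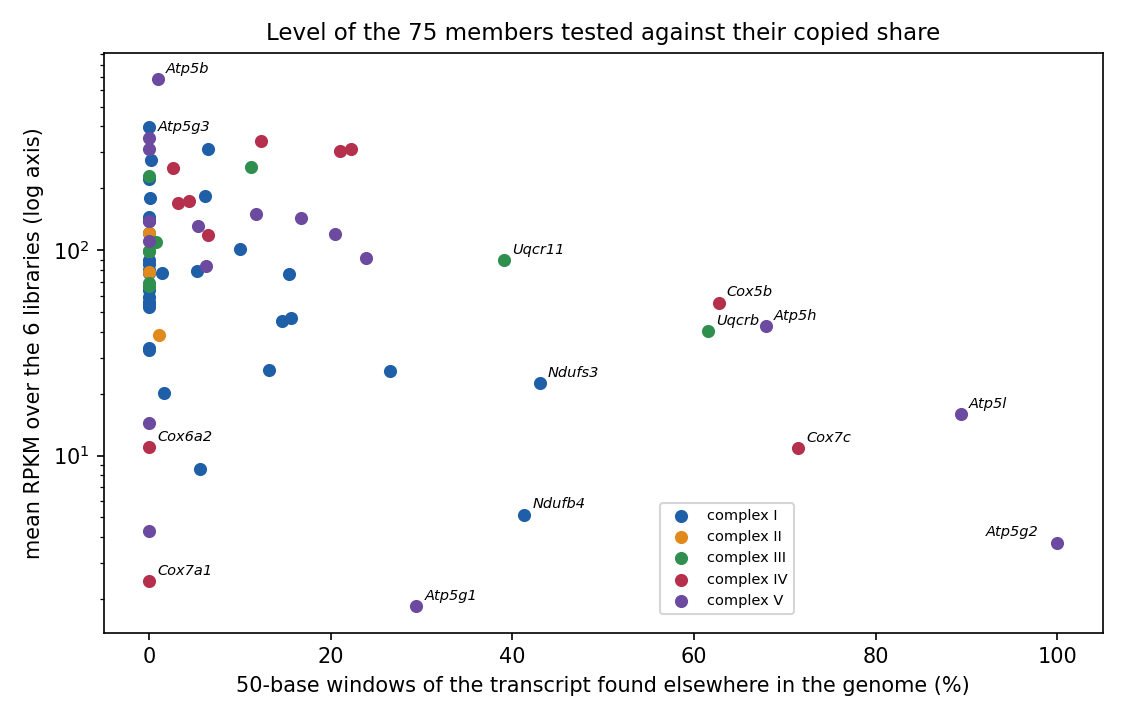
Mean RPKM over the 6 libraries of 6, 48 and 72 h (log axis) of the 75 members tested, against the percentage of 50-base windows of the transcript with a second exact match in mm9; colours are complexes and each point is 1 gene. All 8 genes beyond 40% lie at or below 55.5 RPKM, while the genes at 0% span 2.45 to 396 RPKM.

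Ndufs5, an accessory subunit of complex I (chr4:123389953-123395445, minus strand in mm9), had 1 read in the ko/ko libraries of 6 and 48 h and 0 reads in the other libraries. Its windows were 80.0% copied, all at 1 other place. That place overlaps BC002163, annotated as a pseudogene at chr16:42955744-42956064 on the plus strand. In the same order of times, BC002163 had 1386, 1222, 1258 and 1589 reads in the fx/fx libraries and 1362, 1103, 1129 and 1286 reads in the ko/ko libraries. BC002163, which is no member, was picked once its values had been seen. Its difference between genotypes was -0.01 on the log2 scale (adjusted p = 0.99 in edgeR's quasi-likelihood test).

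In each set of paralogs, 1 isoform was far above the others in RPKM. Cox6a1, the isoform of most tissues, had 339 RPKM and Cox6a2, the isoform of heart and skeletal muscle, 11 RPKM, a ratio of 30.8. Cox7a2 had 173 RPKM against 2.45 RPKM for Cox7a1, the muscle isoform, a ratio of 70.5. Cox6b1 had 250.1 RPKM and Cox7b 119 RPKM, while their paralogs Cox6b2 and Cox7b2, both known mainly from testis, had at most 6 and 9 reads in a library. Cox8a had 305 RPKM, Cox8b, the muscle isoform, at most 1 read in a library, and Cox8c 0 reads in all 8. Cox6b2, Cox7b2, Cox8b, Cox8c and Ndufs5 are the 5 members that did not pass the filter on low counts.

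The 3 Atp5g genes encode the same mature c subunit of the proton-conducting ring with different import sequences. Atp5g3 had 353 RPKM with no copied window, Atp5g1 1.85 RPKM with 29.4% copied windows and Atp5g2 3.77 RPKM with all of its windows copied. The order of the 3 genes is therefore given only as counted, since reads of Atp5g1 and Atp5g2 could have been left out as not unique.

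The first comparison asked whether the members differed between the ko/ko and the fx/fx cells. With 3 libraries per genotype, edgeR's quasi-likelihood test called none of the 75 members at an adjusted p of at most 0.05, while it called 2.22% of the 13121 genes tested. At an unadjusted p under 0.05 there were 5 members (6.7%), against 14.0% of all genes, and DESeq2 called 1 member, Cox7b2, which edgeR's filter leaves out and which had 0 reads in the fx/fx libraries of the tests, and 5.76% of its genes. In edgeR's test none passed an absolute log2 fold change of 1 with an unadjusted p under 0.05, a cutoff the study used with limma. The share of all genes passing it is not given here. The members' log2 fold changes were small and mostly above 0: 65 were positive and 10 negative, with a median of 0.17 against 0.03 over all genes, and they ranged from -0.40 to 0.86. In bulk RNA, fewer cells of a type and less RNA per cell cannot be told apart.

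The medians of the 5 complexes lay close together, at 0.17 for complex I, 0.18 for complex II, 0.19 for complex III, 0.20 for complex IV and 0.14 for complex V. All 4 members of complex II and all 8 of complex III were positive. At single times the difference varied more than between complexes. The median of the members was 0.35 higher in the ko/ko library on the log2 scale at 6 h, where 69 of 75 were higher, and 0.17 higher at 72 h, with 60 of 75. At 48 h it was 0.04 lower and only 29 of 75 were higher, and at 24 h it was 0.11 higher in the library labelled ko/ko, with 55 of 75. Over all genes these medians lay between -0.01 and 0.02.

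**Figure D2:**
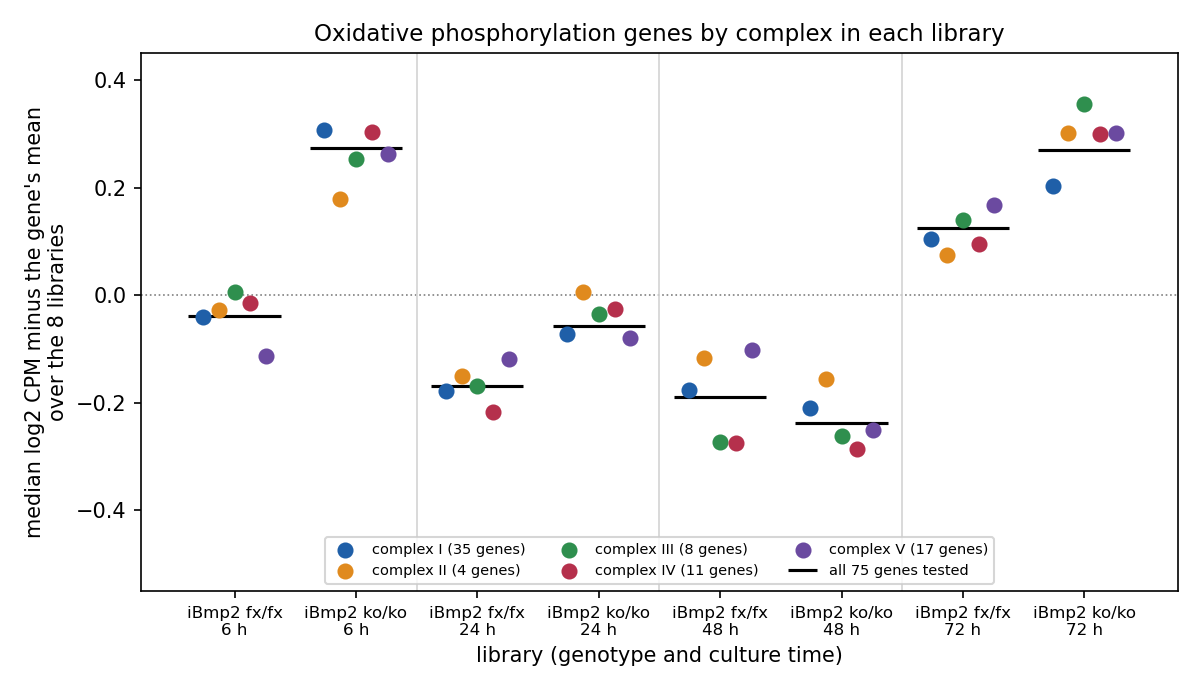
Median over the tested members of each complex (coloured points) and over all 75 (black lines) of log2 CPM minus the gene's own mean over the 8 libraries, by library (genotype and culture time in h). The ko/ko libraries of 6 and 72 h lie at 0.27 for all 75 members and both 48 h libraries at or below -0.19.

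Libraries of the same time deviated together from the means of their genotypes. With culture time as a block in the same test, 14 of 75 members (18.7%) were called, below the 22.7% of all genes that this fit called. Of these, 13 were higher (17.3%, against 11.3% of all genes) and 1 was lower in the ko/ko cells (1.3%, against 11.4%). The called members were 6 of complex I, 1 of complex III, 3 of complex IV and 4 of complex V. All 13 that were higher were above the fx/fx library at each of 6, 48 and 72 h. The number of calls depended on the times: without the libraries of 72 h 1 member was called, without those of 6 h 4 and without those of 48 h 15. With the 24 h libraries in the block, none was called. The shares of all genes called in these refits are not given here, so these counts do not set the members apart from other genes.

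Markers of the cells moved with the genotype too. With the block, 4 of 7 dental mesenchyme markers tested were called lower in the ko/ko cells, with a summed level of 77.7 to 130.3 CPM against 173 to 205 CPM in the fx/fx libraries of the tests. Of 9 mesenchyme markers, 5 were called higher with the block, Vim, Col1a2, Col3a1, Thy1 and Pdgfrb. The other 4 were not called, with blocked log2 fold changes of 0.31 for Col1a1, -0.44 for Fn1, -0.29 for Twist1 and -0.15 for Prrx1. Of the odontoblast markers, 2 of 4 tested were called lower, with a summed level of 89.0 to 112 CPM against 119.9 to 176 CPM. In the same fit 11.3% of all genes were called higher and 11.4% lower. Pax9 (0.52) and Phex (0.45), of the dental mesenchyme and odontoblast lists, were not called. Most markers of other cell types did not pass the filter on low counts, and of those tested, beside muscle markers given with Cox6a2, Cd68 (-1.25) and Csf1r (-1.64) of macrophages, Krt14 (-1.45) of epithelium and Kdr (-1.30) of endothelium were called lower, and Tek (1.53) of endothelium and Tubb3 (0.84) of neurons higher. The part of such shifts in the members' values was not tested.

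Of the 6 called members of complex I, 5 are described. Ndufs8 (chr19:3908870-3912717, minus strand, in mm9 as for all genes named), an iron-sulfur protein on the path to ubiquinone, had 66.1, 52.0, 49.9 and 58.5 CPM in the fx/fx libraries of 6, 24, 48 and 72 h and 126, 65.7, 68.6 and 92.4 CPM in the ko/ko libraries. Its groups did not overlap at 6, 48 and 72 h, and its log2 fold change was 0.72 ± 0.25 (SE, adjusted p = 0.251), and with the block it was 0.69 with an adjusted p of 0.00776. Ndufb8, an accessory subunit of the membrane arm, had 81.2, 61.7, 61.7 and 84.7 CPM in the fx/fx libraries against 134, 79.6, 83.4 and 129 CPM in the ko/ko libraries. Its ko/ko library of 48 h was below the fx/fx library of 72 h, and its log2 fold change was 0.61 ± 0.24 (SE, adjusted p = 0.32), and with the block it was 0.59 with an adjusted p of 0.00815.

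The differences of Ndufs7, Ndufv1 and Ndufa12 were smaller. Ndufs7, which carries the last iron-sulfur cluster before ubiquinone, had a blocked log2 fold change of 0.51 with an adjusted p of 0.0116. For Ndufv1, the subunit that binds NADH, it was 0.48 with an adjusted p of 0.0158, and for Ndufa12, an accessory subunit, 0.52 with an adjusted p of 0.0252. Of the remaining members of complex I, Ndufa13, an accessory subunit of the membrane arm, had groups that did not overlap at 6, 48 and 72 h, with 82.9 ± 8.89 CPM in fx/fx and 109 ± 23.2 CPM in ko/ko cells (SD over 3 libraries each), but was not called, at 0.38 with an adjusted p of 0.0509 with the block.

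In complex II no member was called with or without the block. Sdhb had 129.9, 118, 111 and 142 CPM in the fx/fx libraries against 169, 129, 114 and 164 CPM in the ko/ko libraries. Its groups overlapped, with a log2 fold change of 0.22 ± 0.22 (SE, adjusted p = 0.732), and Sdhc had 0.18 ± 0.16 (SE, adjusted p = 0.692).

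In complex III the called member was Uqcr11 (chr10:79865742-79869575, minus strand), a small supernumerary subunit. It had 34.8, 29.7, 28.7 and 36.7 CPM in the fx/fx libraries against 53.7, 29.2, 33.2 and 51.7 CPM in the ko/ko libraries. The libraries of 6 and 72 h carried the difference. The blocked log2 fold change was 0.45 with an adjusted p of 0.0432, and 39.1% of its windows were copied. Uqcrh, the next by p without the block, had 0.24 ± 0.21 (SE, adjusted p = 0.71).

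Complex IV had 3 called members, all higher in the ko/ko cells. Cox8a (chr19:7289648-7292106, minus strand) had 141, 118, 126 and 141 CPM in the fx/fx libraries against 230.5, 144, 154 and 206 CPM in the ko/ko libraries. The groups did not overlap at 6, 48 and 72 h, with 136 ± 8.29 CPM in fx/fx and 197 ± 39.2 CPM in ko/ko cells (SD over 3 libraries each) and a blocked log2 fold change of 0.52 with an adjusted p of 0.0184. Cox5b, a zinc-binding subunit, had 26.1, 22.0, 19.8 and 28.8 CPM in the fx/fx libraries against 41.6, 27.6, 23.6 and 48.7 CPM in the ko/ko libraries, and its blocked log2 fold change was 0.56 with an adjusted p of 0.027. With 62.7% of its windows copied, Cox5b was counted on the remaining part of its transcript.

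Cox6a2 (chr7:135348950-135349880, minus strand) had 9.23, 11.8, 4.07 and 2.24 CPM in the fx/fx libraries against 15.3, 7.48, 8.21 and 4.44 CPM in the ko/ko libraries. It was higher in the ko/ko library at 6, 48 and 72 h and the library labelled ko/ko was lower at 24 h, and its level fell from 6 h over 48 h to 72 h in both genotypes (adjusted p = 0.00245 in edgeR's test of the 3 times). Its blocked log2 fold change, 0.91 with an adjusted p of 0.0104, was the largest of the members, while without the block it was 0.86 ± 0.60 (SE, adjusted p = 0.607). This last value was 0.33 without the ko/ko library of 6 h, 0.50 without the fx/fx library of 72 h and 1.52 without the fx/fx library of 6 h. With 1 library left out, the genotypes no longer shared the same times. The summed level of the 10 muscle and heart markers was 19.4 to 28.4 CPM in the fx/fx and 7.62 to 16.4 CPM in the ko/ko libraries of the tests, and 6 of them, with Myog, Ckm and Myh7, were at or under 3 counts in every library. With the block, 2 of the 3 tested were called lower in the ko/ko cells, Des (-1.35, adjusted p = 0.0048) and Tnnt2 (-2.14, adjusted p = 0.0219). Their part in the values of Cox6a2 was not tested.

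In complex V, Atp5d (chr10:79601377-79608563, plus strand), the delta subunit of the central stalk, had 133, 92.5, 101 and 137 CPM in the fx/fx libraries against 235, 122, 132 and 195 CPM in the ko/ko libraries. The ko/ko library was the higher at 6, 48 and 72 h, but its 48 h level was below the fx/fx levels of 6 and 72 h. The blocked log2 fold change was 0.57 with an adjusted p of 0.0142. Atp5b (chr10:127520329-127527447, plus strand) had 1015, 920.0, 861 and 1384 CPM in the fx/fx libraries against 1486, 984, 1034 and 2015 CPM in the ko/ko libraries, and the libraries of 72 h were the highest in both genotypes. It and Atp5a1 had blocked log2 fold changes of 0.46 with an adjusted p of 0.0349 and 0.48 with an adjusted p of 0.0242.

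Atp5f1 (chr3:105745616-105763017, minus strand), the b subunit of the peripheral stalk, was the only member called lower with the block. It had 143, 139.7, 143 and 216 CPM in the fx/fx libraries against 118, 147, 97.5 and 166 CPM in the ko/ko libraries. The ko/ko library was the lower at 6, 48 and 72 h. The blocked log2 fold change was -0.40 with an adjusted p of 0.0307. Ndufc1 of complex I was the only tested member whose ko/ko libraries of 6, 48 and 72 h all lay below the fx/fx libraries of these times, at 36.8 ± 2.49 CPM in fx/fx and 28.5 ± 4.54 CPM in ko/ko cells (SD over 3 libraries each). At 24 h it had 41.9 CPM in the library labelled ko/ko and 37.4 CPM in the fx/fx library, and it was not called with the block (adjusted p = 0.0641).

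Over all members tested, the groups did not overlap for 3 that were higher (4.0%, against 8.76% of all genes) and for 1 that was lower (1.3%, against 10.5%) in the ko/ko cells. All these shares were below those of all genes.

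**Figure D3:**
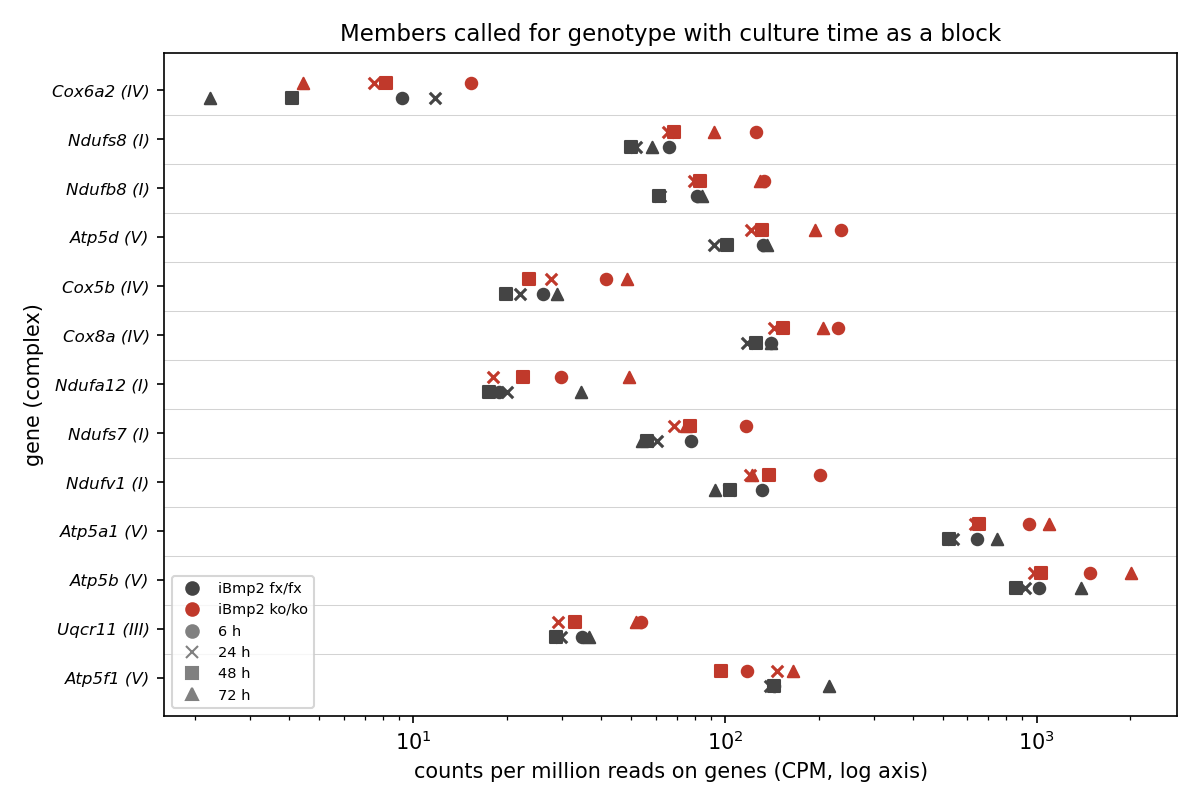
CPM on a log axis of 13 of the 14 members called with culture time as a block, 1 row per gene ordered by its log2 fold change, with fx/fx libraries in grey and ko/ko libraries in red; the symbol gives the culture time and 24 h (crosses), where the ko/ko label is in doubt, was not in the test. Cox6a2 spans 2.24 to 15.3 CPM and Atp5f1 is the only row in which red lies lower at 6, 48 and 72 h.

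The called members are given here by chromosome. Among genes that are no members, the median blocked log2 fold change of a chromosome ranged from -0.40 on chromosome 3 to 0.29 on chromosome 10 and 0.36 on chromosome 19. All 5 members tested on chromosome 10 (Ndufa12, Ndufs7, Uqcr11, Atp5b and Atp5d) and all 4 on chromosome 19 (Ndufb8, Ndufs8, Ndufv1 and Cox8a) were called, and these 9 had a median of 0.52. Of the other genes, 29.8% on chromosome 10 and 36.4% on chromosome 19 were called higher, and 5.31% and 4.33% lower. The 3 members on chromosome 3 had a median of -0.38, beside -0.40 for the other genes there, and the 3 on chromosome 16 had a median of 0.13, beside -0.26. The 60 members on the other chromosomes had a median of 0.15 with 4 called, among them Cox5b, Cox6a2 and Atp5a1.

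Across the 75 members, the blocked log2 fold change and the median of the other genes on the chromosome had a Pearson correlation of 0.73, a description of genes that share libraries and chromosomes. Measured relative to the median of the chromosome, an alternative chosen after seeing the data, 3 of 75 members (4.0%) were called, against 16.5% of all genes. Among these were Cox6a2 with 0.91 (adjusted p = 0.0121) and Ndufb5 on chromosome 3 with 0.45 (adjusted p = 0.0479). Atp5f1 lay at its chromosome's median, with -0.01 (adjusted p = 0.98). The 13 members called higher had a median GC content of 56.4% in the transcript and the other 62 members 50.4%, and the correlation of GC content with the blocked log2 fold change was 0.34 over the 75 members, or 0.21 relative to the chromosome. The part of chromosome or GC content in the genotype difference was not tested.

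At 24 h the chromosome medians between the libraries lay between -0.06 and 0.07 on the log2 scale, against -0.42 to 0.40 at 6 h, -0.40 to 0.33 at 48 h and -0.45 to 0.30 at 72 h. The 9 members on chromosomes 10 and 19 had a median difference of 0.66, 0.36 and 0.49 at 6, 48 and 72 h and 0.15 at 24 h. Of the 14 members called with the block, 12 were nearer to the fx/fx mean than to the ko/ko mean in the library labelled ko/ko at 24 h, a count over members chosen on the other times. In the library labelled ko/ko at 24 h, 54 of 75 members lay within the range of the other ko/ko libraries, 14 below and 7 above it. In the fx/fx library of 24 h, 47 lay within, 24 below and 4 above the range of the others.

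**Figure D4:**
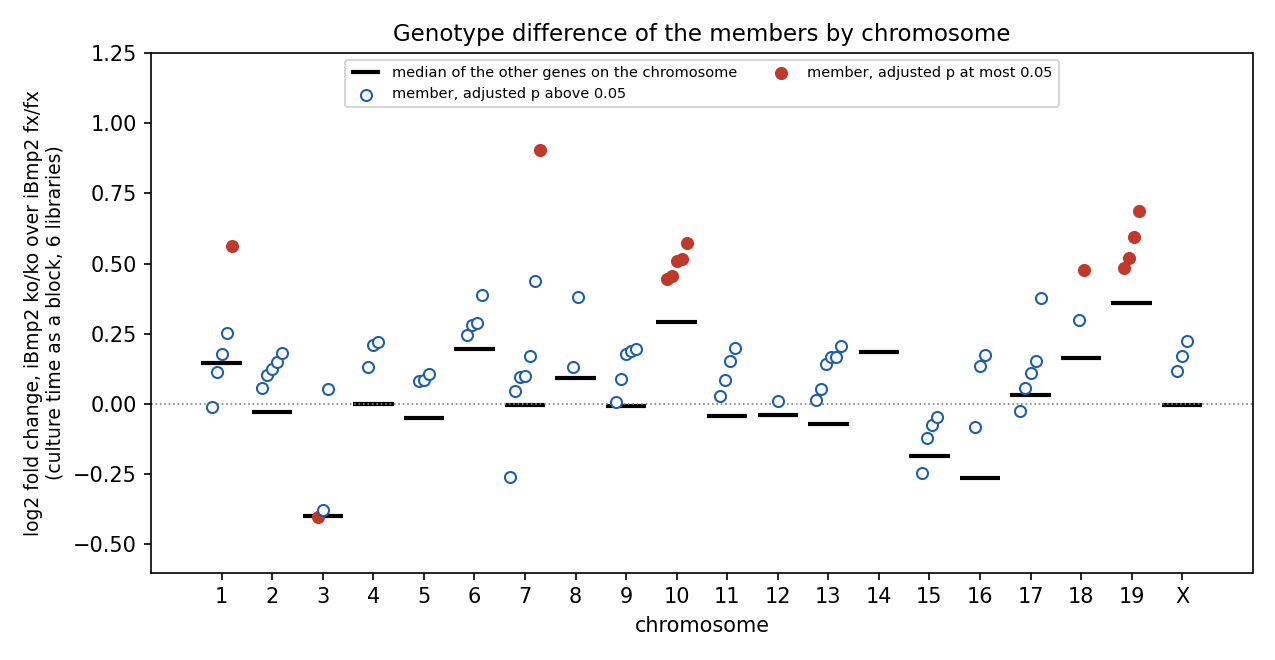
Log2 fold change of the ko/ko over the fx/fx cells with culture time as a block (6 libraries) for 74 of the 75 members (points, filled red where the adjusted p was at most 0.05), by chromosome; black bars are the medians of the other genes on that chromosome. Every member on chromosomes 10 and 19 is filled and lies above its bar, and the members of chromosome 3 include the lowest at -0.40.

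The second comparison asked how the members changed over culture time. A slope on the log2 of the hours, with genotype in the fit, called no member at an adjusted p of at most 0.05, and none of the 13121 genes. At an unadjusted p under 0.05 there were 7 members (9.3%), all with a negative slope, against 21.1% of all genes, and DESeq2 called 1, Cox6a2, and 7.40% of its genes. The slope of Cox6a2 was -0.45 ± 0.09 (SE) per doubling of time on the log2 scale, and that of Ndufs7 in complex I was -0.15 ± 0.04.

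The times were also compared without a line. With the 3 times as separate levels, a fit added after seeing the data with 2 libraries per time, 31 of 75 members (41.3%) were called, near the 41.1% of all genes. All 31 were lower at 48 h than at 6 h, and 24 of them were higher at 72 h than at 6 h. For 27 of them (36.0% of the members tested, against 7.45% of all genes) 48 h was the lowest of the 3 times, and for Ndufs7, Ndufv1, Cox6a2 and Atp5sl 72 h was as low or lower. Of the 75 members, 72 were lower at 48 h than at 6 h, against 53.1% of all genes, with a median of -0.36 against -0.03 on the log2 scale. The median at 72 h was 0.06 above that at 6 h.

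By complex, the median difference of 48 h from 6 h was -0.38 for complex I, -0.18 for complex II, -0.40 for complex III, -0.42 for complex IV and -0.31 for complex V. The calls were 11 of 35 in complex I, 1 of 4 in complex II, 4 of 8 in complex III, 6 of 11 in complex IV and 9 of 17 in complex V. Atp5b was 0.35 lower at 48 h and 0.52 higher at 72 h than at 6 h (adjusted p = 0.00972 in edgeR's test of the 3 levels), and Cox7b 0.29 lower and 0.62 higher (adjusted p = 0.00662). Uqcr10, a small subunit of complex III, was 0.50 lower at 48 h and 0.27 lower at 72 h (adjusted p = 0.039). Sdhb, the called member of complex II, was 0.37 lower at 48 h and 0.11 higher at 72 h (adjusted p = 0.0466).

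The slopes of the 2 genotypes on time were compared by an interaction term. It called no member and no gene at an adjusted p of at most 0.05, and no member but 63 genes had an unadjusted p under 0.05. This test has 2 residual degrees of freedom. So has the fit of genotype with culture times as separate levels, which gave the 14 genotype calls with the block and the 31 culture time calls.

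The other genes of the pathway are given beside the members. Of 23 other subunits and carriers, 10 were in the table and 8 were tested, with none called without the block and 1 with it. That gene was Cox4i1, the main isoform of subunit 4 of complex IV, with 355, 289, 288 and 291 CPM in the fx/fx libraries against 550.1, 342, 318 and 418 CPM in the ko/ko libraries and a blocked log2 fold change of 0.44 (adjusted p = 0.0444). Cox4i2, its hypoxia-responsive isoform, was at or under 3 counts in every library. Cyc1, the cytochrome c1 subunit of complex III, had a blocked log2 fold change of -0.10 (adjusted p = 0.50), Cycs, cytochrome c, 0.59 (adjusted p = 0.10), and Ndufa4l2 -0.34 (adjusted p = 0.55). For Ndufab1 the blocked log2 fold change was -0.06 (adjusted p = 0.83 in edgeR's test).

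Of 28 assembly factors tested, 1 was called with the block, Cox18, which inserts a complex IV subunit into the membrane (0.49, adjusted p = 0.028). None of 13 regulators of mitochondrial biogenesis was called with or without the block, beside 22.7% and 2.22% of all genes. Ppargc1a, a coactivator of mitochondrial genes, had 7.27, 3.35, 4.50 and 0.831 CPM in the fx/fx libraries against 3.17, 7.94, 2.98 and 0.618 CPM in the ko/ko libraries. It was lower in the ko/ko libraries at 6, 48 and 72 h and higher in the library so labelled at 24 h, with a blocked log2 fold change of -0.79 (adjusted p = 0.0551). The blocked values were 0.53 for Ppargc1b, -0.03 for Nrf1, -0.29 for Gabpa, 0.45 for Esrra and 0.29 for Tfam, the mitochondrial transcription factor.

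In the tricarboxylic acid cycle and pyruvate entry, 2 of 17 genes were called higher with the block, Cs, citrate synthase (0.38, adjusted p = 0.0354), and Fh1, fumarase (0.45, adjusted p = 0.0355). In glycolysis, 2 of 17 were called higher, Hk1 (0.39, adjusted p = 0.0492) and Eno3 (0.66, adjusted p = 0.0102), and 1 lower, Pfkm (-0.49, adjusted p = 0.0312). These shares of called genes stand beside 11.3% higher and 11.4% lower over all genes. So do those of the assembly factors and of the other subunits and carriers. The median blocked log2 fold changes of these lists were 0.26 for the other subunits and carriers, 0.05 for the assembly factors and for the regulators, 0.18 for the tricarboxylic acid cycle and 0.08 for glycolysis, against 0.02 over all genes and 0.15 over the members.

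The promoters of respiratory chain genes are known for sites of NRF1, the ETS factor GABP and YY1. Sequences of 250 bases before to 50 bases after the start, from RefSeq on GRCm38.p6, were matched for 68 of the 80 members and set beside those of 17491 genes. The letters searched on both strands were GCGCA, any base and GCGC in a row for NRF1, CCGGAAG for ETS factors and AAGATGGCG for YY1. The NRF1 letters were in 16 of 68 members (23.5%, against 6.6% of all promoters), the ETS letters in 15 (22.1%, against 11.9%) and the YY1 letters in 7 (10.3%, against 1.9%). At least 1 of the 3 was in 48.5% of members and 18.6% of all promoters. The ERR letters TCAAGGTCA were in 2.9% and 0.3%, and the TATA letters TATAAA in 10.3% and 13.3%. None of these strings contains another. The GC box GGGCGG was in 39.7% and 46.3%, and the median GC content of the window was 57.3% and 56.3%.

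The 250 bases before the start are printed for the 3 members with the most reads among those holding the NRF1 letters there, and for Uqcr11, the only matched member called with the block that holds any of the 3 motifs wholly before the start. Capitals mark NRF1 and ETS letters.
Sdha: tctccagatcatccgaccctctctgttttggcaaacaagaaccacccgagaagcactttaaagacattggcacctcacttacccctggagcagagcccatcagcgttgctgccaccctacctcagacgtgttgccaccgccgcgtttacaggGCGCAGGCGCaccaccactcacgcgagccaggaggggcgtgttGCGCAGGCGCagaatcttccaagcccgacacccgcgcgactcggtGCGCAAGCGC
Cox6a1: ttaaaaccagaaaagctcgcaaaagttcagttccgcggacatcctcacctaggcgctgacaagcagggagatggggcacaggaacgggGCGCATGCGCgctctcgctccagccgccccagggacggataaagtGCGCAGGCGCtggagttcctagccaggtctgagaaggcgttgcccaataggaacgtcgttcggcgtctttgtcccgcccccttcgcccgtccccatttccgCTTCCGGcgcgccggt
Sdhd: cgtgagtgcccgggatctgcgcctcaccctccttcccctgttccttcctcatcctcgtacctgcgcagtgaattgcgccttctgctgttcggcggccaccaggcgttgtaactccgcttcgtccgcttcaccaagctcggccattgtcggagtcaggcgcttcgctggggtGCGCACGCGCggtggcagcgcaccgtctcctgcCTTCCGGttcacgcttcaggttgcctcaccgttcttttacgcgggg
Uqcr11: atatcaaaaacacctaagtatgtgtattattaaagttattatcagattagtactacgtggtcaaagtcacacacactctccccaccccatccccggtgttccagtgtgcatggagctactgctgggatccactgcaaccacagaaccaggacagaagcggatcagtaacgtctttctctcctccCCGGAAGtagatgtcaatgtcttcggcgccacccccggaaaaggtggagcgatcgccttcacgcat
On GRCm38.p6 these are chr13:74350241-74350490 (Sdha), chr5:115348959-115349208 (Cox6a1), chr9:50603850-50604099 (Sdhd) and chr10:80406822-80407071 (Uqcr11), all on the minus strand. Sdha holds the NRF1 letters at 3 places, Cox6a1 at 2 places with the ETS letters nearer the start, and Sdhd 1 of each. The 7 places of the YY1 letters all lay after the start. A match of letters is a description of the window, and binding was not measured in these cells.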

How the data were processed

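The 8 libraries, 1 per genotype and time, gave reads of 50 bases that were, per the labels, base-called with CASAVA 1.8.2, aligned with TopHat2 2.0.8b to mm9 and counted per gene by HTSeq. The labels give single reads and the study's methods paired ones; the window shares assume single reads of 50 bases. The authors deposited raw counts for each library. The annotation and strand setting are not given in the sources used here, so reads of antisense neighbours cannot be told apart. The labels give 6 h for the first time and the design text another hour, and the labels were followed. Tables of lncRNA counts were not used. The members and lists were chosen with earlier results of these data known. The values of 1 member called with the block are not reported here, though counts and medians over the members include it, except in the search for single libraries set apart.

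Genes were matched to GENCODE M1 (mm9) by symbol, and all 80 members matched. Counts were tested in R 4.3.3 with edgeR 4.0.16, on 6 libraries without a block. The settings were TMM, filterByExpr with at least 10 counts and 15 in total, the quasi-likelihood test, and Benjamini-Hochberg adjustment over all 13121 genes tested. The test was also run on simulated counts with the same dispersion for all genes and no shifts of whole chromosomes. That run gives no error rates for these data. Deviations from the genotype mean correlated between the libraries of a time at 0.71 (6 h), 0.54 (48 h) and 0.84 (72 h), a pairing that comes from the labelled culture time. Alternatives were other library sets, a time block, scalings and filters, DESeq2 1.42.0, and limma 3.58.1 on log2 CPM and RPKM with offsets of 0.5 and 0.1. Values on the log2 CPM scale have a prior count of 2. Named genes were, per complex, the 2 with the smallest genotype p, the 1 with the smallest time p, and the highest and lowest RPKM, with all isoform sets and every member called.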

Additional observations from a re-analysis of the deposited data

Results flagged for a closer look

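Among the 4 libraries labelled with a genotype, 24 h included, 8 of 148 groups of member values held 1 library set far apart from the other 3 by Dixon's criterion for 4 values, and chance gives about 1 in 20. The fx/fx library of 72 h was the high one for Ndufa12 (34.7 CPM, the others 17.5 to 19.9), Cox7b (140.2 CPM, the others 88.8 to 96.6), Cox7c (6.71 CPM, the others 5.37 to 5.51), Atp5f1 (216 CPM, the others 139.7 to 143) and Atp5g1 (11.7 CPM, the others 6.39 to 6.59). The fx/fx library of 6 h was the high one for Ndufa2 (114 CPM, the others 98.5 to 99.2). Ndufa2 was also high in the ko/ko library of 6 h (166 CPM, the others 107 to 116). Cox7a1 was low in the ko/ko library of 72 h (0.425 CPM, the others 1.29 to 1.35).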

How the results depend on the processing

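No member was called for genotype under 18 of the alternatives run. These include all 8 libraries, 7 libraries, RLE, upper quartile and library size scaling, no filter and a minimum of 10 counts per library. They also include both limma fits, the fold change cutoff of the study on edgeR's fit, and leaving out each library in turn. The exceptions were the replicate block of culture time over 6 libraries with 14 members, DESeq2 with 1 and the unadjusted p under 0.05 with 5. For the 14 members with calls, the direction held under each of the 18 alternatives run for them, and only the block gave calls. Their sizes moved more when 1 library was left out. Those fits had no block, and the genotypes then no longer shared the same times. Ndufa12, 0.52 with all 6 libraries, was 0.09 without the ko/ko library of 72 h and 0.94 without the fx/fx library of 72 h. Without these libraries Atp5b (0.48) was 0.17 and 0.73, and Atp5f1 (-0.40) was -0.69 and -0.14. The median log2 fold change of the members stayed positive under all of these, between 0.07 (without the ko/ko library of 72 h) and 0.30 (without that of 48 h) when 1 library was left out. With the replicate block, the 14 calls became 15 with RLE or upper quartile scaling and 14 with library size alone. Of the 14 calls, 9 were of members with at most 10% of windows copied, which is a subset and no new fit. The 14 calls became 4 without the libraries of 6 h, 15 without those of 48 h and 1 without those of 72 h. They became 3 relative to the chromosome median and 0 over all 8 libraries. For these other sets of libraries the share of all genes called is not given, so the counts do not set the members apart. For culture time, the slope called 1 member with DESeq2, and 31 were called with 3 levels (28 with library size alone, 32 with RLE). The interaction called 0 under each alternative run. Counting only windows unique in the genome as length gave a median of 102 RPKM, and TMM-scaled library sizes gave 86.1 RPKM. The median difference at 24 h was 0.11 with TMM and 0.18 with library size alone. The cause of these changes was not tested, except that fewer libraries were fitted where a time was left out. Depth limits what can be said of Cox6b2, Cox7b2, Cox8b and Cox8c, which had at most 9 reads in a library, while the few reads of Ndufs5 stand beside a copied share of 80.0%.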

Other observations

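Cox7b2, an isoform of complex IV subunit 7b known mainly from testis and chosen here after its values were seen, had 0 reads in the fx/fx libraries of 6, 48 and 72 h and 9, 8 and 5 reads in the ko/ko libraries of these times. At 24 h the order was turned, with 1 read in the fx/fx library and 0 reads in the library labelled ko/ko. None of its 50-base windows is copied elsewhere in mm9. The counts are too low for edgeR's filter.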
